A study of Mus musculus with 3 samples.

Results

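The 32 genes described here encode enzymes and regulators of sterol and fatty acid synthesis in the SREBP pathway. They were chosen by name and pathway role, with earlier results of these data known. The sterol arm had 18 genes, the fatty acid arm 8 and the group of regulators and sterol transport 5, and Pcyt2, an enzyme of phospholipid synthesis, made up the rest. All 32 had a row in the 3' tables, which held 55295 gene symbols, and 31 had a row among the 20716 symbols of the CBTi-seq table. Stard4, a cytosolic sterol carrier, was not analysed in CBTi-seq.

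The cells were L929, an established line of mouse fibroblasts. Cells with a knockdown of Rrm2, the small subunit of ribonucleotide reductase, were set against control cells of the same line. The series title also speaks of gene editing. The sources used here do not give the agent, its target site, the time after treatment or the number of cultures or clones. CBTi-seq, a single-cell method in which single cells are picked by capillary and their poly(A) RNA is copied with template switching, gave 1 sample whose table held 10 knock columns and 10 control columns. A 3' counting method gave 1 library labelled knock and 1 labelled control, each with 8 columns. The columns are taken as single cells from the protocol text, although their headers do not say so.

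Levels are counts per 1000000 counts (CPM), summed over the columns of a group, and a ratio is the knock level over the control level on the log2 scale. The CBTi-seq columns held 153051 to 735871 counts in knock cells and 41570 to 846819 counts in control cells. The 3' columns held 814960 to 1973137 counts in the library labelled knock and 399393 to 2496457 counts in the library labelled control. Every group was 1 sample, or columns of 1 sample, so no difference was tested against replicates and no p-value is given. The 95% intervals are exact and cover counting error only, and the columns within a sample do not stand in for replicates. In CBTi-seq, the targeted gene Rrm2 stood at 350.1 CPM in knock cells and 481 CPM in control cells, with overlapping columns. In the 3' tables it went against the labels, at 148 CPM in the library labelled knock and 39.1 CPM in the library labelled control, so these libraries are called by their labels throughout. Of the 10 fibroblast markers, 7 had a CBTi-seq row, and their sum overlapped between the groups, at 1368 to 2496 CPM in knock columns and 1450 to 2465 CPM in control columns. Vim stood at 1071 CPM in knock cells and 976 CPM in control cells, Col1a2 at 42.2 CPM in knock cells and 101 CPM in control cells, and Pdgfrb at 58.7 CPM in knock cells and 104.6 CPM in control cells. None of the 4 endothelial markers had a CBTi-seq row. Of the 7 adipocyte markers, 5 had a CBTi-seq row, and their sum overlapped between the groups, at 381 to 1256 CPM in knock columns and 241 to 1330 CPM in control columns. Fabp4 stood at 416 CPM in knock cells and 370.5 CPM in control cells, and Plin1 at 1.14 and 0.259 CPM. Lower in knock cells were Lpl, at 219 CPM against 360 CPM in control cells, Pparg, at 79.0 against 105 CPM, and Cidec, at 1.71 against 13.2 CPM. The 3 of 5 leukocyte markers with a row summed to 5.33 to 47.5 CPM in knock columns and 18.8 to 177 CPM in control columns, with Cd68 at 20.0 CPM in knock cells and 43.5 CPM in control cells, and their part in the results was not tested. In the 3' tables the 10 fibroblast markers summed to 1571 to 1771 CPM in columns of the library labelled knock and 716 to 877 CPM in columns of the library labelled control. Vim stood at 1169 CPM in the library labelled knock and 644 CPM in the library labelled control. Thy1, Pdgfra, Lum and Dcn went the other way, with Dcn at 4.80 CPM in the library labelled knock and 18.1 CPM in the library labelled control. The adipocyte sum was 610.4 to 842 CPM in the library labelled knock and 474 to 504 CPM in the library labelled control, with Adipoq, Plin1 and Lep at 0 in both. Fabp4 stood at 456 CPM in the library labelled knock and 132 CPM in the library labelled control. Lpl went the other way, at 224 CPM in the library labelled knock and 342 CPM in the library labelled control. The leukocyte sum was 123 to 175 CPM in the library labelled knock and 57.7 to 110.2 CPM in the library labelled control, with Ptprc and Cd3e at 0 in both. Cd68 stood at 150 CPM in the library labelled knock and 77.8 CPM in the library labelled control, while Csf1r had 0 counts and 1 count there. These 3 sums did not overlap. The epithelial sum did, at 96.8 to 181 CPM in the library labelled knock and 139 to 252 CPM in the library labelled control, with Krt18 at 0 in both. Cdh1 stood at 110.5 CPM in the library labelled knock and 188 CPM in the library labelled control. Krt8 and Krt19 went the other way, at 6.11 and 4.48 CPM in the library labelled knock and 0 CPM in the library labelled control. The part of these markers in the 3' values was not tested.

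SREBP proteins are membrane-bound transcription factors. When membrane sterol is low, Scap carries them from the endoplasmic reticulum to the Golgi, where proteases release the active part, and Insig proteins hold Scap back when sterol is plentiful. SREBP2 (Srebf2) mainly drives the genes of cholesterol synthesis and uptake, and SREBP1 (Srebf1) those of fatty acid synthesis and desaturation. In proliferating fibroblasts both arms supply lipid for new membrane.

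The letters searched in the start regions were those of a sterol regulatory element (TCACNCCAC) and of the CCAAT box that NF-Y binds beside it. The start region of Hmgcs1 is shown because it holds both, and those of Msmo1 and Fasn because they hold several CCAAT matches. The sequences are from RefSeq on GRCm38.p6, run 5′ to 3′ on the strand of the gene, and cover the 200 bases before the transcription start. Capitals mark a match on the strand shown, or ATTGG where CCAAT lies on the other strand. The Hmgcs1 stretch is chr13:119690151-119690350 on the plus strand, the Msmo1 stretch chr8:64733579-64733778 on the minus strand and the Fasn stretch chr11:120824548-120824747 on the minus strand.
Hmgcs1: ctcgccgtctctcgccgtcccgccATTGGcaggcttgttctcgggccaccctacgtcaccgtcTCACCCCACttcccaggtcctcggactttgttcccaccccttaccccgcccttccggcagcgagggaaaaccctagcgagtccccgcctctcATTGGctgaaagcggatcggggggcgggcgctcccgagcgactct
Msmo1: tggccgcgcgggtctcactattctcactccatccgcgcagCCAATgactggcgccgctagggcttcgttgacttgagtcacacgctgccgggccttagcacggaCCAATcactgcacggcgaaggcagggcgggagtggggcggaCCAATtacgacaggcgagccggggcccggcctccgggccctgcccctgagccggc
Fasn: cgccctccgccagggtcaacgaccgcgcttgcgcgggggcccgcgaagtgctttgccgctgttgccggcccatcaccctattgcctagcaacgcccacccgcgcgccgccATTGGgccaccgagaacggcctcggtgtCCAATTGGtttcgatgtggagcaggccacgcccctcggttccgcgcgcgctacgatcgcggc
Of the 32 genes, 24 had at least 1 entry in the RefSeq promoter table, with 30 promoters in all. Each entry runs from 250 bases before to 50 bases after the start, and both strands were searched. The letters TCACNCCAC were found in 1 of the 30, that of Hmgcs1, at 137 to 129 bases before the start. They were found in 1.24% of all 32851 promoters of the table. CCAAT was found in 20 of the 30 promoters (66.7%), against 37.4% of all promoters. By gene, 19 of 24 had it (79.2%), against 41.1% of all genes in the table. In the Fasn stretch a match on each strand overlaps the other. A match is a run of letters and was not tested as a binding site.

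In CBTi-seq the genes of both arms were lower in knock cells, and the arms were not compared with each other. Of the 29 genes at 20 CPM or more, averaged over the groups, 27 had a lower level in knock cells, with a median log2 ratio of -0.60. Over all 8391 genes at that level, 55.3% were lower and the median was -0.05. A log2 ratio of -0.5 or below was reached by 21 of the 29, and by 13.8% of all genes. Without control column 9, the deepest, 25 of the 29 were lower and 13 had a ratio of -0.5 or below, with 12.3% of all genes at that size. The summed level of the 31 genes was 3581 CPM in knock cells and 5309 CPM in control cells. Column by column, the sum ran from 3028 to 4182 CPM in knock cells and from 4426 to 6566 CPM in control cells, so every knock column lay below every control column.

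The size of single differences was modest. At 50 CPM or more, 25 of the genes were measured, and 1 of them, Pcyt2, was at least 2-fold lower in knock cells, where 0.668% of all 5243 genes were. None was at least 2-fold higher, where 0.343% of all genes were.

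**Figure D1:**
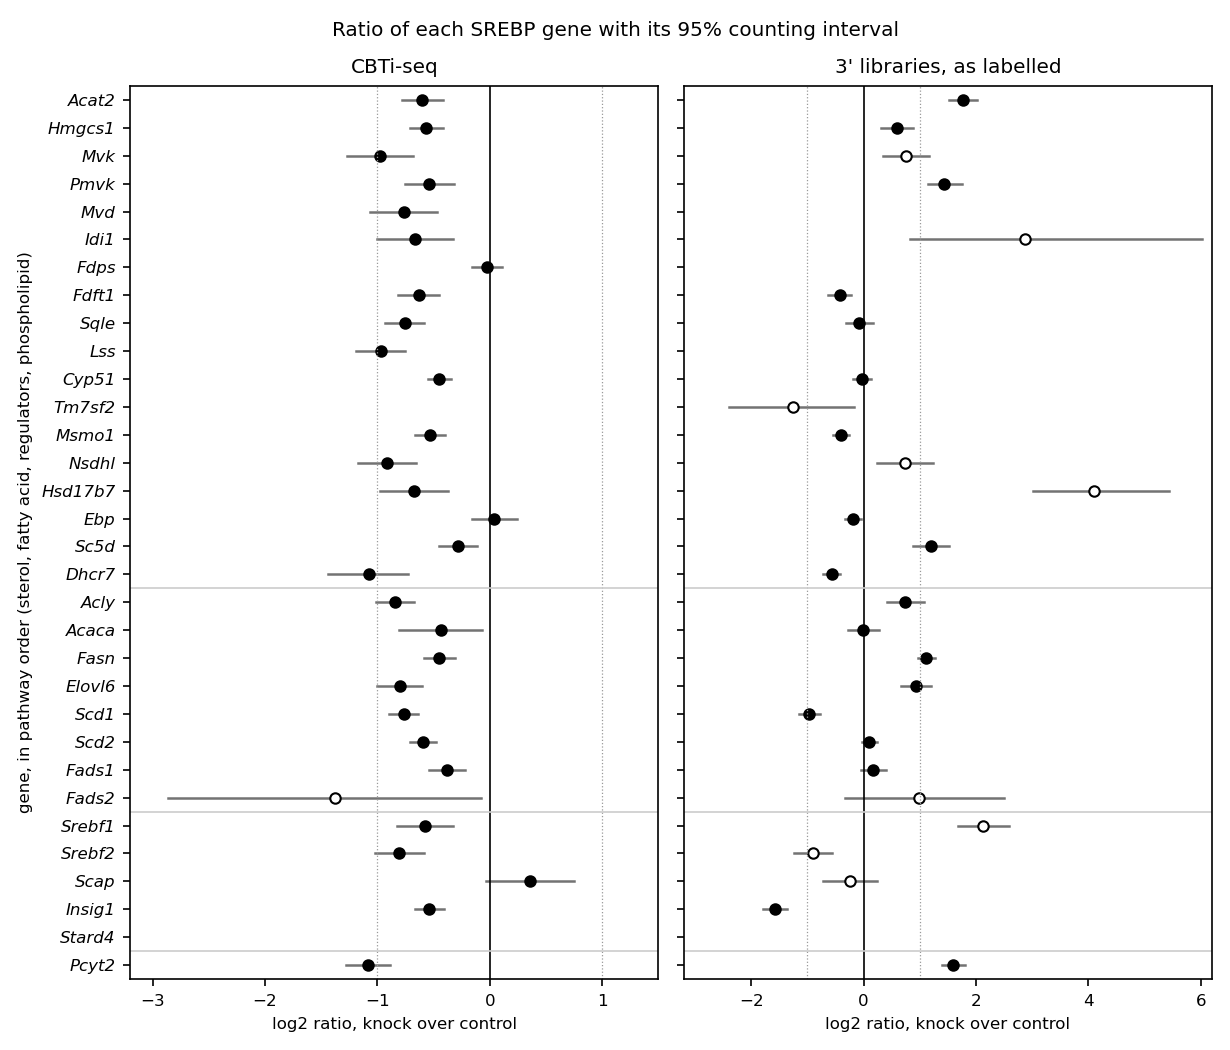
Log2 ratio of knock over control for each gene in pathway order, in CBTi-seq (left) and in the 3' libraries as labelled (right), with 95% counting intervals as bars; filled points are genes at 20 CPM or more, open points are below that, and dotted lines mark a 2-fold difference. In CBTi-seq, 27 of the 29 filled points lie left of 0, whereas in the 3' libraries 10 of the 19 filled points lie right of it.

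The sterol arm begins with the steps that make isoprenoids from acetyl-CoA, and all 7 genes of these steps had a lower level in knock cells, with a median log2 ratio of -0.60 and 6 at -0.5 or below. Without control column 9, 5 of 7 were lower, with a median of -0.37 and 1 at -0.5 or below. Hmgcs1, which makes HMG-CoA, ran from 142 to 248 CPM with a median of 174 CPM in the knock columns, and from 96.2 to 383 CPM with a median of 226 CPM in the control columns. The columns overlapped, and 4 control columns lay above the highest knock column. Its summed level was 179 CPM in knock cells and 265 CPM in control cells, a log2 ratio of -0.56 (-0.71 to -0.42).

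Mvk, the kinase that phosphorylates mevalonate, stood at 40.5 CPM in knock cells and 79.5 CPM in control cells, a log2 ratio of -0.97 (-1.27 to -0.68). Pmvk, which adds the next phosphate, stood at 81.3 CPM in knock cells and 118 CPM in control cells, and Mvd, the decarboxylase after it, at 40.8 CPM in knock cells and 69.4 CPM in control cells. The log2 ratios of these genes were -0.54 for Pmvk and -0.77 for Mvd. Acat2, the cytosolic thiolase that feeds the pathway, had a ratio of -0.60, and Idi1, the isomerase of isopentenyl diphosphate, of -0.66.

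Fdps, which makes farnesyl diphosphate, the branch point to non-sterol isoprenoids, differed from its neighbours. It ran from 173 to 285 CPM with a median of 241 CPM in the knock columns, and from 72.2 to 314 CPM with a median of 240.2 CPM in the control columns. The columns overlapped almost fully. The log2 ratio was -0.03 with an interval of -0.16 to 0.11. It was above 0, at 0.02 to 0.09, with TMM or median-of-ratios factors or equal weight per column. With every column thinned to the same depth the Fdps ratio was -0.19, which lies outside that interval. The ratio given above for Hmgcs1 lies outside it as well, but the interval covers counting error only. The Hmgcs1 ratio also moved, to -0.35 with equal weight per column and -0.37 without control column 9.

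Of the 11 genes from squalene onward, 10 were measured at 20 CPM or more, and 9 of these were lower in knock cells. Their median log2 ratio was -0.65, with 7 at -0.5 or below. Without control column 9, 9 of 10 were lower, with a median of -0.49 and 5 at -0.5 or below. Sqle, the monooxygenase that makes squalene epoxide, ran from 87.0 to 183 CPM with a median of 126 CPM in the knock columns, and from 72.2 to 276 CPM with a median of 191 CPM in the control columns. Of the control columns, 5 stood above all knock columns. Its log2 ratio was -0.76 (-0.93 to -0.59).

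Lss, the cyclase that closes the sterol ring system, ran from 37.3 to 109 CPM in the knock columns with a median of 66.0 CPM, and from 72.2 to 189 CPM in the control columns with a median of 128 CPM. Of the 10 knock columns, 7 lay below the lowest control column. The log2 ratio was -0.97 (-1.19 to -0.75).

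The demethylation steps that follow were also lower in knock cells. Cyp51, the lanosterol demethylase, stood at 349 CPM in knock cells and 477 CPM in control cells, a log2 ratio of -0.45, and Msmo1, the sterol methyl oxidase whose start region is shown above, at 220.1 CPM in knock cells and 318 CPM in control cells, a ratio of -0.53. Nsdhl, the decarboxylating dehydrogenase that acts with Msmo1, had a ratio of -0.91 (-1.18 to -0.66), and Hsd17b7, the ketoreductase of the same complex, of -0.67 (-0.97 to -0.37). Fdft1, which makes squalene, had a ratio of -0.63 and overlaps Ctsb on the opposite strand, and Cyp51 overlaps Akap9 in the same way. The sources used here do not say whether the counting used strand.

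At the end of the pathway the values diverged. Ebp, the sterol isomerase, stood at 113 CPM in knock cells and 110.3 CPM in control cells, with an interval of the log2 ratio from -0.16 to 0.24. Sc5d, the desaturase after it, had a ratio of -0.28 (-0.45 to -0.11). Dhcr7, the last reductase of the route through dehydrocholesterol, stood at 27.4 CPM in knock cells and 57.7 CPM in control cells, a ratio of -1.08 (-1.44 to -0.73), from 96 counts in knock cells and 223 counts in control cells. With a mean under 50 CPM, Dhcr7 was not among the genes counted as 2-fold apart. Tm7sf2, a sterol reductase that shares its strand and locus with Vps51, had 0 counts in knock cells, which allows a level of up to 0.855 CPM, and 10 counts in control cells, or 2.59 CPM.

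The summed sterol arm was 1983 CPM in knock cells and 2829 CPM in control cells, or 70.1% of the control level (68.0% to 72.3%). Column sums ran from 1669 to 2365 CPM in knock cells and from 1588 to 3786 CPM in control cells, and the groups overlapped. Both ends of the control range were unusual columns. Control column 1, with the lowest sum, was also the shallowest at 41570 counts, and control column 9, with the highest, was also the deepest at 846819 counts. Without control column 9 the median log2 ratio of the arm was -0.40, and 14 of 17 genes were lower in knock cells. Idi1 then had a ratio of 0.05, and the summed arm was 77.5% of the control level.

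In the fatty acid arm all 7 genes at 20 CPM or more were lower in knock cells, with a median log2 ratio of -0.59. The summed arm was 1113 CPM in knock cells and 1716 CPM in control cells, or 64.9% (62.3% to 67.5%). Column sums ran from 869 to 1287 CPM in knock cells and from 1468 to 2261 CPM in control cells, with no overlap. The highest control sum was that of control column 1, the shallowest at 41570 counts. Leaving out control column 9 gave 67.1% and a median ratio of -0.58.

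Scd1, a desaturase that puts the first double bond into saturated fatty acids, had 134 to 293 CPM with a median of 211 CPM in the knock columns, and 295 to 485 CPM with a median of 329 CPM in the control columns. Every knock column lay below every control column. The log2 ratio was -0.77 (-0.89 to -0.64).

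Scd2, a second desaturase of the same family, had 162 to 326 CPM with a median of 294 CPM in the knock columns, and 332 to 770 CPM with a median of 440 CPM in the control columns. Again no columns overlapped, and the log2 ratio was -0.59 (-0.71 to -0.48). These were 2 of 6 genes, or 0.114% of the 5243 at 50 CPM or more, with every knock column below every control column. The gaps were narrow, at 293 against 295 CPM for Scd1 and 326 against 332 CPM for Scd2. Without the shallow control column 1 the count of such genes was 10. The genes are close paralogues on chromosome 19, and the sources used here do not say how reads that match both were counted.

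Upstream of the desaturases, Acly, which makes cytosolic acetyl-CoA from citrate, had 95.1 to 152 CPM with a median of 125 CPM in the knock columns, and 96.2 to 304 CPM with a median of 205 CPM in the control columns. Of the control columns, 8 stood above the highest knock column, and the log2 ratio was -0.84 (-1.01 to -0.68). Fasn, the fatty acid synthase whose start region is shown above, had 206 CPM in knock cells and 281 CPM in control cells, a ratio of -0.45 (-0.59 to -0.31). Acaca, the carboxylase that makes malonyl-CoA, had a similar ratio of -0.44 with a wide interval (-0.81 to -0.07), from 106 counts in knock cells and 158 counts in control cells.

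Elovl6, which lengthens palmitate, had 50.6 to 111 CPM with a median of 94.0 CPM in the knock columns, and 84.6 to 601 CPM with a median of 141 CPM in the control columns. As with Acly, 8 control columns stood above all knock columns. The log2 ratio was -0.80 (-1.0 to -0.60). Fads1, a front-end desaturase of polyunsaturated fatty acids, had the smallest difference of the arm among genes at 20 CPM or more, with a ratio of -0.38 (-0.54 to -0.22). Its neighbour Fads2 had 7 counts in knock cells and 20 counts in control cells, too few to describe further.

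**Figure D2:**
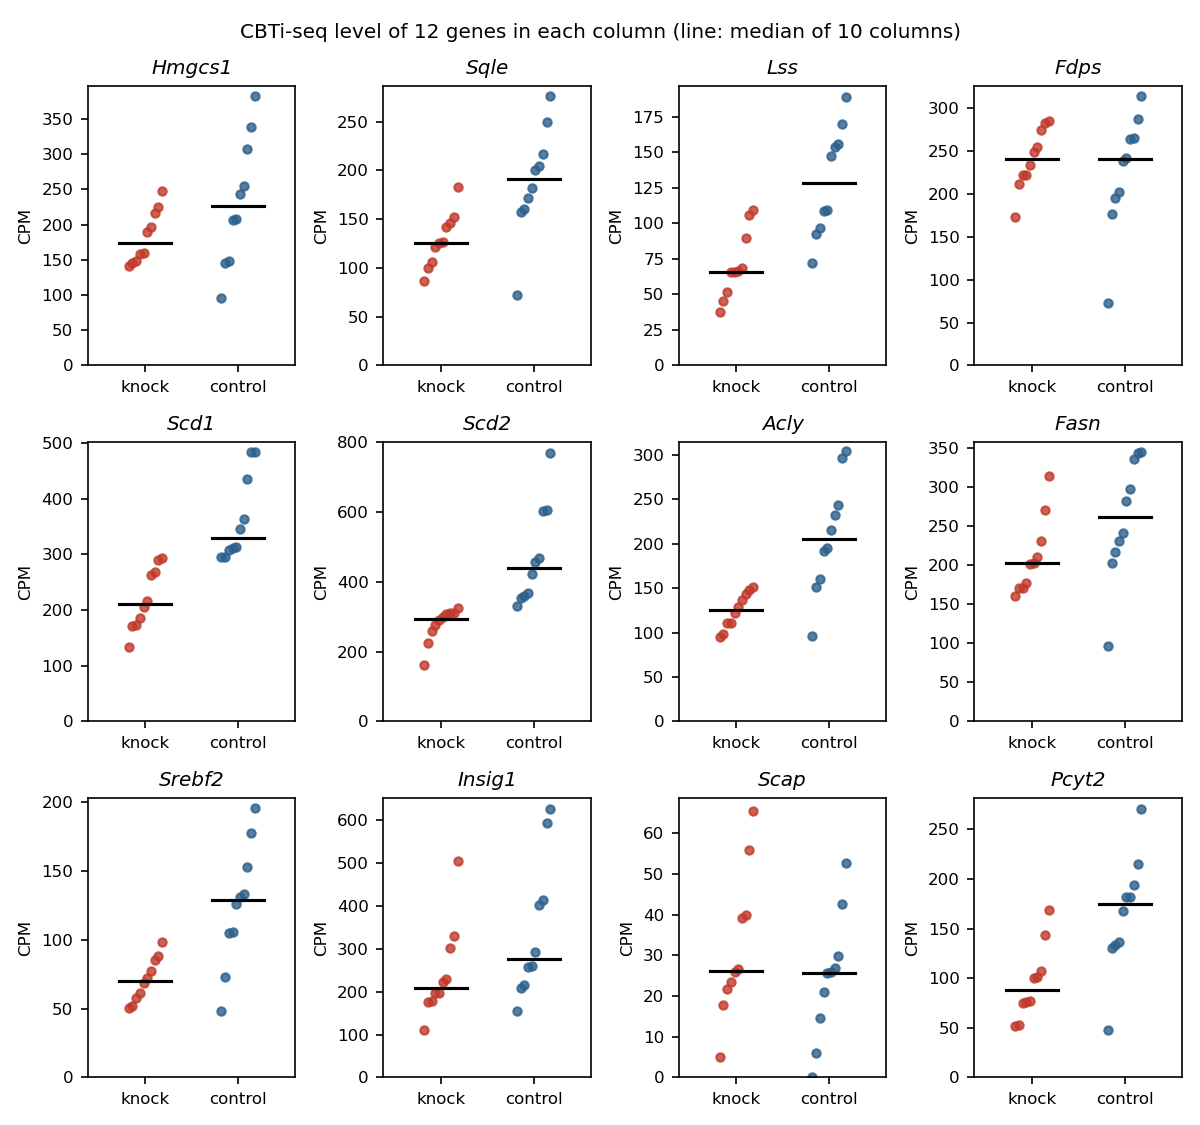
CBTi-seq level of 12 genes in CPM, with 1 point per column, knock columns left and control columns right, and a line at the median of 10 columns. Scd1 and Scd2 are the panels without overlap between the groups, while the Fdps columns of the groups largely share a range.

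Among the regulators, both SREBP genes and Insig1 were lower in knock cells and Scap was not. Srebf2 had 50.4 to 98.1 CPM with a median of 70.1 CPM in the knock columns, and 48.1 to 196 CPM with a median of 129 CPM in the control columns. Of the control columns, 8 lay above the highest knock column, and the log2 ratio was -0.81 (-1.03 to -0.59). Srebf1 stood at 60.7 CPM in knock cells and 90.6 CPM in control cells, a ratio of -0.58 (-0.83 to -0.33). It overlaps Rai1 on the opposite strand.

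Insig1, the retention protein whose own transcription SREBP drives, varied widely, from 110.1 to 504 CPM in the knock columns and from 156 to 626 CPM in the control columns. Its log2 ratio was -0.54 (-0.67 to -0.41). Scap stood at 34.8 CPM in knock cells and 27.2 CPM in control cells, a ratio of 0.36 with an interval of -0.03 to 0.75.

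Pcyt2, the enzyme that activates ethanolamine with CTP and so commits it to phosphatidylethanolamine, had the largest CBTi-seq difference among the pathway genes at 50 CPM or more. It had 51.3 to 169 CPM with a median of 88.5 CPM in the knock columns, and 48.1 to 270.4 CPM with a median of 175 CPM in the control columns. The columns overlapped, and 5 control columns lay above all knock columns. The summed level was 88.7 CPM in knock cells and 188 CPM in control cells, a log2 ratio of -1.08 (-1.28 to -0.89). Without control column 9 the ratio was -0.89, and no gene of the pathway was then 2-fold apart. Of the other genes of phosphatidylethanolamine and choline synthesis, 6 of 9 were lower in knock cells with a median ratio of -0.10. Among all genes 55.3% were lower. None of the 9 had a ratio of -0.5 or below, where 13.8% of all genes did. Of the 9, Selenoi, the ethanolamine phosphotransferase that uses the product of Pcyt2, had a ratio of 0.34 (0.09 to 0.59), and Pisd, the mitochondrial route to the same lipid, of 0.30 (0.06 to 0.54). Cept1 had a ratio of -0.21 and Chkb of -0.20, with intervals that include 0.

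Across the columns of a group, the sterol genes varied together more in control cells than in knock cells as the table stands. Over 17 genes, the median Pearson r of a gene with the summed rest of the sterol arm was 0.34 over the 10 knock columns and 0.74 over the 10 control columns. It was 0.73 without control column 1. With every column thinned to 50000 counts it was 0.19 in knock columns and 0.36 in the 9 control columns left. Hmgcs1 had the values 0.56 in knock columns and 0.94 in control columns, and Fdft1 0.11 in knock columns and 0.95 in control columns. The points share a library, and the sterol sum itself had an r with the column total of -0.20 in knock columns and 0.72 in control columns. The part of depth in these values was not tested.

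Over 10 columns per group, Pcyt2 followed the sterol sum more closely than any of 5218 genes outside the list, by the smaller of its r values in the 2 groups. Its smaller r was 0.717, a narrow lead over the 0.693 of Fen1. The r of Pcyt2 was 0.72 over the knock columns and 0.88 over the control columns, and 0.81 over the control columns without column 1. After thinning the values were 0.29 in knock columns and 0.39 in control columns, and the ranking was not repeated there. Among control columns, column 9 was highest in both the sterol sum (3786 CPM) and Pcyt2 (270.4 CPM). Column 1 was lowest in both, at 1588 CPM and 48.1 CPM. The 10 closest genes outside the list were Fen1, Pak1, Ttc39b, Pfdn6, Tmem222, Ncor1, Rela, Gpatch11, Gm10143 and Gm3375, whose smaller r ran from 0.654 for Gm3375 to 0.693 for Fen1. All genes at 50 CPM or more had a median r with the sterol sum of -0.03 in knock columns and 0.41 in control columns, and the control value was 0.04 without column 1. The r of the sterol sum with the fatty acid sum was 0.30 in knock columns and -0.23 in control columns, and the control value was 0.51 without column 1 and -0.49 without column 9. No relation between the arms is therefore given for control cells.

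**Figure D3:**
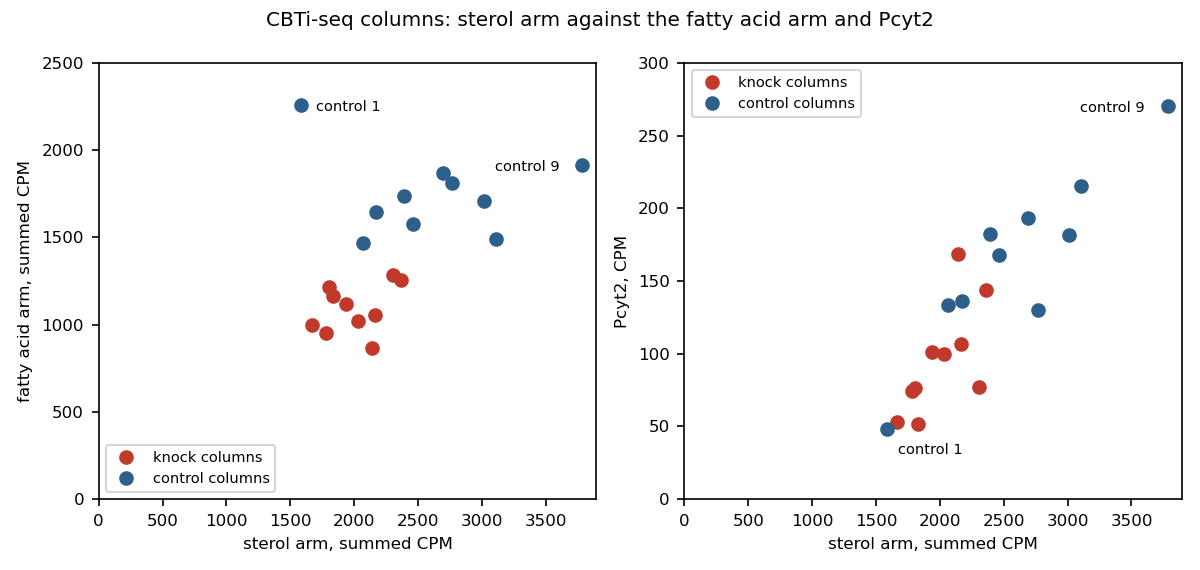
Summed CPM of the sterol arm in each CBTi-seq column (x) against the summed CPM of the fatty acid arm (left) or the CPM of Pcyt2 (right), with knock columns in red and control columns in blue. On the fatty acid axis the groups are apart, at 869 to 1287 CPM in knock columns and 1468 to 2261 CPM in control columns, while on the sterol axis they overlap, and control columns 1 and 9 lie at its ends for control cells.

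Related genes outside the list, taken from lists made with earlier results of these data known, were lower in knock cells to a smaller extent. Over all 8391 genes at 20 CPM or more, 55.3% were lower, with a median log2 ratio of -0.05. Among 20 other genes of sterol synthesis and SREBP control, 16 were lower, with a median log2 ratio of -0.33. Among 13 other genes of lipid synthesis, 11 were lower, with a median of -0.28. Acss2, an acetyl-CoA synthetase, had a ratio of -1.09 (-1.45 to -0.73), and Me1, an NADPH-producing malic enzyme, of -0.83 (-1.02 to -0.65). Elovl5, a fatty acid elongase, had a ratio of -0.69 (-0.91 to -0.47), and Dgat2, which makes triglyceride, of 0.47 (0.08 to 0.86). Of 6 genes of sterol efflux and storage, 4 were lower, and Lipa, the lysosomal lipase, had a ratio of -0.66 (-0.84 to -0.47) while Nceh1, a cholesteryl ester hydrolase, had 0.51 (0.16 to 0.86). Scarb1, a lipoprotein receptor, had a ratio of -0.49 (-0.62 to -0.35), and Nr1h2, an oxysterol receptor, of -0.46 (-0.74 to -0.18).

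Of the fatty acid oxidation genes, 6 of 10 were lower in knock cells with a median ratio of -0.29, where 55.3% of all genes were lower. Cpt1a, which takes fatty acids into mitochondria, had a ratio of -0.82 (-1.13 to -0.51). Acadm, a mitochondrial dehydrogenase, had -0.63 (-0.79 to -0.48) and Plin2, a lipid droplet coat protein, -0.44 (-0.54 to -0.33). Of the hypoxia genes, all 13 measured had a lower level in knock cells, with a median ratio of -0.90, and their sum was 1679 CPM in knock cells and 3074 CPM in control cells. Car9, a carbonic anhydrase induced by hypoxia, had a ratio of -1.66 (-1.85 to -1.49). The others 2-fold lower were Bnip3, a mitophagy receptor, at -1.22 (-1.36 to -1.09), Ndrg1 at -1.17 (-1.35 to -1.0) and Slc2a1, a glucose transporter, at -1.06 (-1.25 to -0.88). The sum of the hypoxia genes had an r with the sterol sum of 0.20 in knock columns and -0.39 in control columns. Whether the hypoxia difference has a part in the lipid values was not tested.

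In the 3' libraries the pathway did not move as a block. Of 19 genes at 20 CPM or more, 10 were higher in the library labelled knock, with a median log2 ratio of 0.10. Over all 5701 genes at that level 58.8% were higher, with a median of 0.18, which other scalings moved to between 0.01 and 0.06. Ribosomal protein genes held 16.0% of counts in the library labelled knock and 23.7% in the library labelled control. A ratio of 0.5 or above was reached by 8 of the 19, and by 34.1% of all genes, and a ratio of -0.5 or below by 3 of the 19, and by 18.2% of all genes. At 50 CPM or more, 3 of 11 were at least 2-fold higher, where 13.3% of 2826 genes were, and 1 was at least 2-fold lower, where 4.53% were.

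Within the sterol arm, early and later steps are given apart. Of the 7 genes of the early steps, only 3 were at 20 CPM or more, and the others are left out of the count. All 3 were higher in the library labelled knock, where 58.8% of all genes were, with a median ratio of 1.44. Of the later steps, 6 of 7 were lower, where 41.2% of all genes were, with a median of -0.19. The summed early steps stood at 182 CPM in the library labelled knock and 74.6 CPM in the library labelled control, and the later steps at 478 CPM in the library labelled knock and 538 CPM in the library labelled control. The column sums of the early steps did not overlap, at 158 to 217 CPM in the library labelled knock and 25.0 to 89.7 CPM in the library labelled control. Those of the later steps did, at 448 to 517 CPM in the library labelled knock and 429 to 568 CPM in the library labelled control. Acat2, at 83.6 CPM, and Pmvk, at 44.5 CPM, made up most of the early sum in the library labelled knock. Among single genes at 50 CPM or more, 24.6% lay wholly higher in the library labelled knock and 11.7% wholly lower. The split into early and later steps was seen after the values were known.

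Acat2 had 66.3 to 98.3 CPM with a median of 84.7 CPM in columns of the library labelled knock, and 12.5 to 30.0 CPM with a median of 24.0 CPM in columns of the library labelled control. The ratio was 1.76 (1.52 to 2.01). Pmvk had 33.2 to 61.4 CPM with a median of 46.5 CPM in the library labelled knock, and 2.50 to 22.5 CPM with a median of 15.5 CPM in the library labelled control. Its ratio was 1.44 (1.14 to 1.75), and neither gene's columns overlapped. Such separation was common in these tables, since every column of the library labelled knock lay above every column of the library labelled control for 24.6% of the 2826 genes at 50 CPM or more, and below for 11.7%.

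Hmgcs1 had 23.2 to 43.6 CPM in the library labelled knock and 5.01 to 35.9 CPM in the library labelled control, and the columns overlapped. Its ratio was 0.59 (0.31 to 0.87). Sc5d was the later step at 20 CPM or more with a higher level in the library labelled knock, at 34.4 CPM in the library labelled knock and 15.0 CPM in the library labelled control, a ratio of 1.20 (0.87 to 1.53) with no overlap of columns. Dhcr7 stood at 80.3 CPM in the library labelled knock and 119 CPM in the library labelled control, a ratio of -0.57 (-0.72 to -0.43). Cyp51, Sqle, Ebp, Fdft1 and Msmo1 had ratios of -0.43 to -0.03. The intervals of Cyp51 (-0.20 to 0.14) and Sqle (-0.32 to 0.17) include 0, and without control column 2 their ratios were 0.09 each. Below 20 CPM, Nsdhl had a ratio of 0.73 (0.25 to 1.24).

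Several sterol genes had too few 3' counts to follow. Fdps had 0 counts in both libraries, although it stood at 242 CPM in knock cells and 246 CPM in control cells in CBTi-seq. Mvd and Stard4 also had 0 counts in both. Mvd overlaps Gm20388 on the opposite strand, which had 290.2 CPM in the library labelled knock and 169 CPM in the library labelled control, and Fdps overlaps Gm43738 on its own strand, which had 6 counts in the library labelled knock and 10 counts in the library labelled control. An exact 0 for a gene that CBTi-seq detects in the same line is reported only as listed. Lss had 0 counts in the library labelled knock and 6 counts in the library labelled control. Idi1 had 19 counts in the library labelled knock and 2 counts in the library labelled control. Hsd17b7 had 155 counts in the library labelled knock and 7 counts in the library labelled control, a ratio of 4.09 (3.02 to 5.43) at a mean under 20 CPM.

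The fatty acid arm had 5 of 7 genes higher in the library labelled knock, where 58.8% of all genes were. Its median ratio of 0.17 was close to that of all genes. Fasn had 110.4 to 189 CPM with a median of 144 CPM in the library labelled knock, and 43.8 to 102 CPM with a median of 66.3 CPM in the library labelled control. No columns overlapped, and the ratio was 1.12 (0.96 to 1.27). Elovl6 had 45.2 CPM in the library labelled knock and 23.8 CPM in the library labelled control, a ratio of 0.93 (0.66 to 1.19), and also no overlap.

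Scd1 was lower in the library labelled knock, with 37.3 to 50.3 CPM and a median of 40.6 CPM in the library labelled knock, and 67.6 to 123 CPM and a median of 75.1 CPM in the library labelled control. Its columns did not overlap, and the ratio was -0.96 (-1.15 to -0.77). Its CBTi-seq ratio was negative as well, as were those of 27 of the 29 pathway genes at 20 CPM or more there. Fdft1, Msmo1 and Dhcr7 also had intervals below 0 in both assays, as did Insig1 and Srebf2, whose 3' values follow. Scd2 overlapped almost fully, with a ratio of 0.10 (-0.03 to 0.23). The intervals of Fads1 (-0.05 to 0.40) and Acaca (-0.28 to 0.28) also include 0.

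Among the regulators, Insig1 had 20.4 to 48.1 CPM with a median of 30.0 CPM in the library labelled knock, and 61.3 to 120.2 CPM with a median of 85.4 CPM in the library labelled control. The columns did not overlap, and its ratio of -1.57 (-1.78 to -1.37) made it the gene counted as 2-fold lower. Srebf1 had 19.6 to 39.2 CPM in the library labelled knock and 0 to 9.21 CPM in the library labelled control, a ratio of 2.12 (1.68 to 2.59). Srebf2 had the opposite sign, at 13.9 CPM in the library labelled knock and 25.8 CPM in the library labelled control, a ratio of -0.89 (-1.23 to -0.56). Srebf1 and Srebf2 were both under 20 CPM on average. Pcyt2 had 89.7 to 141 CPM with a median of 111 CPM in the library labelled knock, and 24.8 to 60.8 CPM with a median of 34.4 CPM in the library labelled control, a ratio of 1.60 (1.40 to 1.80) with no overlap.

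**Figure D4:**
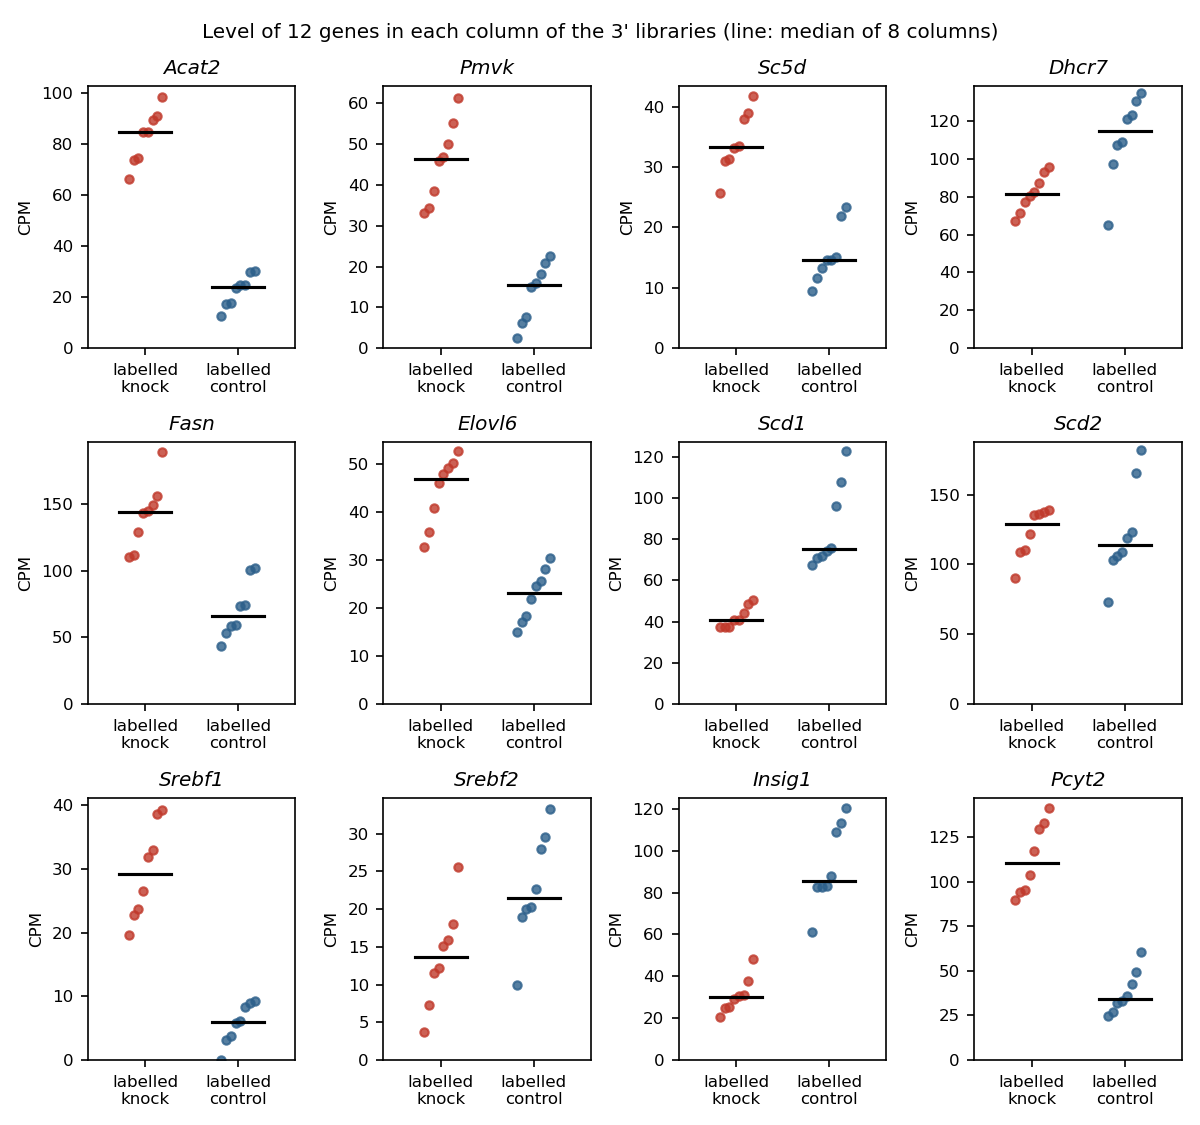
Level of 12 genes in CPM in the 3' libraries, with 1 point per column, the library labelled knock left and the library labelled control right, and a line at the median of 8 columns. Acat2, Pmvk, Sc5d, Fasn, Elovl6, Srebf1 and Pcyt2 lie wholly higher in the library labelled knock and Scd1 and Insig1 wholly lower, while Scd2, Srebf2 and Dhcr7 overlap.

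The outside lists were likewise mixed in the 3' libraries. Insig2, the second retention protein, stood at 85.6 CPM in the library labelled knock and 27.4 CPM in the library labelled control, a ratio of 1.64 (1.41 to 1.87), against the negative ratio of Insig1. Slc25a1, the mitochondrial citrate carrier that supplies Acly, had a ratio of 1.33 (1.15 to 1.52), and Lipa of 1.38 (1.24 to 1.52). Cyb5r3, a reductase that passes electrons to desaturases, had a ratio of 1.26 (1.11 to 1.42), Scarb1 of 1.02 (0.83 to 1.21) and Hadha, a subunit of the mitochondrial trifunctional protein, of 1.22 (1.07 to 1.38). Of the phospholipid genes, Pcyt1a had 1.12 (0.81 to 1.44), Ptdss2 0.97 (0.70 to 1.24), Pisd 0.45 (0.27 to 0.63) and Chka -0.77 (-1.0 to -0.55). The hypoxia genes were split, with 4 of 8 higher, where 58.8% of all genes were. Their sum was 1068 CPM in the library labelled knock and 1839 CPM in the library labelled control. Egln3, an oxygen-sensing hydroxylase, had a ratio of 1.36 (1.18 to 1.53), Ero1l, an oxidase of the endoplasmic reticulum, of -2.40 (-2.56 to -2.25) and Ndrg1 of -1.92 (-2.12 to -1.73).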

How the data were processed

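RNA of L929 cells was measured in 3 samples, whose columns are taken as single cells from the protocol text. The values are whole-number counts per gene and column as deposited by the authors, with no normalization. STAR 2.7.11b, Picard and FastQC are listed, per the submitters' processing notes, with the builds GRCm38 and GRCh38 and no word on their roles. The sources used here do not name the counting tool or say whether it used strand, nor whether the counts of the 3' tables are reads or molecular identifiers. The name of the CBTi-seq table refers to molecular identifiers. Per the labels' protocols, cDNA was amplified over 20 cycles, so reads without identifiers would not be independent molecules.

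Rows were summed by symbol. Of 55402 Ensembl IDs in the 3' tables, 55141 matched a name, and the others made up 0.0329% of counts in the library labelled knock and 0.0194% in the library labelled control. Coordinates and overlaps are from GENCODE on GRCm38, and 9 of the 32 genes overlap another on the same strand and 7 on the opposite strand only. The columns of a group were added up and divided by their total. A count of 0 allows up to 3 counts, or 0.855 CPM in CBTi-seq knock cells, 0.777 CPM in control cells, 0.327 CPM in the 3' library labelled knock and 0.424 CPM in the library labelled control. Intervals are 95%, exact conditional (Clopper-Pearson). With 1 sample per group no test was made. A gene was counted as 2-fold apart by size alone, at a mean of 50 CPM or more, and medians used a mean of 20 CPM or more. Correlations used log2(CPM + 1).

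The genes and lists were chosen with earlier results of these data known. The text names all 32 genes, Rrm2, and from each outside list the genes 2-fold apart or, where there were none, the 4 largest ratios at 20 CPM or more, besides the 10 genes most like the sterol arm. Some genes that this rule names are not reported here. A log2 ratio of 0.5 in size and the values without control columns 1 and 9 were added after the data were seen. Alternatives were equal weight per column, median-of-ratios factors from DESeq2 1.42.0, TMM factors from edgeR 4.0.16, a total without mitochondrial and ribosomal protein genes, thinning to 50000 counts, corrections for identifier collisions, other level limits and leaving out each column. The calculation was tested on simulated counts. Python 3.11.15 was run with scipy 1.17.1, pandas 2.3.3, numpy 2.4.6 and, for figures, matplotlib 3.10.9, and R was version 4.3.3.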

Additional observations from a re-analysis of the deposited data

Results flagged for a closer look

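For 8 genes every column of the 3' library labelled knock lay above every column of the library labelled control, while the summed CBTi-seq level was lower in knock cells than in control cells. Such separation in the 3' libraries was as common elsewhere, at 24.6% of all 2826 genes at 50 CPM or more, and is no trait of the pathway. At 20 CPM or more in both assays and at least 2-fold apart in one, 5 of the 8 are singled out. Their log2 ratios in the 3' libraries were 1.76 for Acat2, 1.44 for Pmvk, 1.20 for Sc5d, 1.12 for Fasn and 1.60 for Pcyt2. In CBTi-seq the ratios were -0.60 for Acat2, -0.54 for Pmvk, -0.28 for Sc5d, -0.45 for Fasn and -1.08 for Pcyt2. Of the other 3, Elovl6 was less than 2-fold apart, with ratios of 0.93 in the 3' libraries and -0.80 in CBTi-seq. Srebf1, at 2.12 in the 3' libraries and -0.58 in CBTi-seq, and Hsd17b7, at 4.09 in the 3' libraries and -0.67 in CBTi-seq, were under 20 CPM in the 3' libraries. The difference between the assays was not tested, since each has 1 sample per group. Rrm2 also had opposite signs in the assays, with ratios of 1.92 in the 3' libraries and -0.46 in CBTi-seq, so the opposite signs cannot be told apart from the labels of the 3' libraries.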

How the results depend on the processing

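The CBTi-seq medians kept their negative sign under all alternatives run. For the sterol arm the log2 median of -0.63 became -0.44 with equal weight per column, -0.56 with TMM and -0.58 with median-of-ratios factors, and -0.68 when corrected for collisions among 1024 identifiers, and -0.71 with a pool set by the highest count. For the fatty acid arm the median of -0.59 became -0.73 with equal weights, -0.52 with TMM, -0.67 with the pool set by the highest count and -0.68 with no level limit. Leaving out 1 column gave -0.75 to -0.40 for the sterol arm, with the upper end without control column 9, and -0.66 to -0.52 for the fatty acid arm. Of 31 single ratios, 30 kept their sign with TMM factors, median-of-ratios factors and equal weights. These 31 include Rrm2 and leave out Tm7sf2, which had no ratio.

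The number of pathway genes 2-fold lower in CBTi-seq, 1, was 4 after thinning, 2 with 1024 identifiers, 3 with the pool set by the highest count, 2 at 20 CPM, and 0 to 3 with 1 column left out. Over all genes, the 35 lower became 66 with equal weights, 117 after thinning and 203 at 20 CPM, and 33 to 54 with 1 column left out, the last without knock column 10. The 18 higher became 34 after thinning and 45 at 20 CPM.

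The 3' sterol median of -0.05 has no stable sign. It was 0.0057 with equal weights, 0.46 after thinning, 0.59 with no level limit, -0.20 with TMM, -0.21 with median-of-ratios factors, -0.18 without mitochondrial and ribosomal protein genes, and -0.11 to 0.090 with 1 column left out, the last without control column 2, the deepest. The 3' fatty acid median of 0.17 was 0.26 with equal weights, 0.021 with TMM, 0.018 with median-of-ratios factors, 0.046 without mitochondrial and ribosomal protein genes, 0.31 after thinning, 0.46 with no level limit and 0.086 to 0.30 with 1 column left out. The same scalings moved the median of all genes from 0.18 to between 0.01 and 0.06. The 1 pathway gene 2-fold lower became 2 with equal weights, TMM, median-of-ratios factors, the reduced total and thinning, and 1 to 2 with 1 column left out. The 3 higher became 0 after thinning and 5 at 20 CPM. Over all 3' genes, the 128 lower became 206 with TMM, 208 with median-of-ratios factors, 246 with the reduced total and 324 at 20 CPM, and the 377 higher became 986 at 20 CPM.

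The median r over sterol genes fell to 0.19 in knock columns and 0.36 in control columns after thinning, and was 0.66 in control columns without column 9. With an A required before the sterol regulatory letters, 0.234% of all promoters and 0 of the 30 had a match.

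No paired analysis was possible because each group has 1 sample and the columns share no replicate numbers between groups that the labels explain. Variation between cultures, clones or library preparations cannot be seen with 1 sample per group. Depth limits genes of few counts, such as Tm7sf2, Fads2, Idi1 and Lss in 1 assay or both.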

Other observations

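The genes outside the list whose levels followed the summed sterol arm most closely across CBTi-seq columns were Fen1, Pak1, Ttc39b, Pfdn6, Tmem222, Ncor1, Rela, Gpatch11, Gm10143 and Gm3375. They were ranked by the smaller of the Pearson r over 10 knock columns and the r over 10 control columns. For Fen1, a nuclease of DNA replication, these were 0.69 in knock columns and 0.71 in control columns. For Gm3375, the lowest of the 10, they were 0.71 in knock columns and 0.65 in control columns. The points share a library and differ in depth, and the ranks are a description that was not repeated after thinning.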
